A study of Mus musculus with 21 samples.

Results

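The ileum of mice whose only vitamin D receptor (VDR) is a human transgene active in the distal intestine, taken after injections of the active hormone 1,25-dihydroxyvitamin D3 (1,25D3), was compared with the ileum of mice made to lack VDR in the intestinal epithelium. Of the 21 poly(A) RNA libraries of the study, 7 enter this comparison, 3 treated and 4 knockout (KO). Genes were kept where the 7 libraries averaged 1 FPKM or more, which gave 11974 of the 21441 genes. FPKM is the number of fragments per kilobase of exon, scaled to the size of the library. Tceal5, at a mean of 1.00005 FPKM, was just inside this limit and Tox2, at 0.9997 FPKM, just outside. The KO mice were untreated C57BL6J males of the genotype Villin-CreERT2 VDR f/f, 1 aged 9 weeks and 3 aged 11 weeks. Villin drives the tamoxifen-inducible Cre in epithelial cells of the gut, so cells elsewhere in these mice keep their own VDR. The treated mice were CDX2-VDR transgenic C57BL6J males aged 9 weeks, with no VDR of their own and human VDR in the distal intestine, given 3 injections of 1,25D3 at 1 ng per g of body weight 48, 24 and 6 h before the end. Genotype and injection differ together between the groups, so their parts cannot be told apart here. Age differs too for the 3 older KO mice. For side-by-side values, 3 ileum libraries of uninjected CDX2-VDR mice (2 females of 9 weeks and 1 male of 10 weeks) and colon libraries of the treated and KO groups (3 and 4), with the same genotype, strain, sex, ages and injections as their ileum groups, were read. No label names an animal, so p-values measure the spread between these samples. The tables number the treated libraries 1, 2 and 4, and these numbers are used below.

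VDR is a nuclear receptor that binds 1,25D3, pairs with a retinoid X receptor (RXR) and acts on DNA at direct repeats of a short half-site. In the gut it is best known for calcium uptake, in which the channel Trpv6 admits calcium, calbindin-D9k (S100g) carries it through the cell and the pump Atp2b1 exports it. It also drives Cyp24a1, the hydroxylase that inactivates the hormone, and genes of drug and bile acid handling are known targets in this tissue. The ileum is the segment where bile acids are recovered, with Fabp6 as their carrier inside the cell.

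Totals recovered from the FPKM values came to between 28.0 M and 38.3 M (mega) reads per library, with 16010 to 17110 genes above 0. The libraries of 1 group differed among themselves. The correlation across genes on the log2 scale was 0.938 to 0.983 between KO libraries, 0.837 to 0.945 between treated libraries and 0.87 to 0.972 between the groups. Treated 1 stood apart, at 95.6 on a first principal component that held 52.8% of the variance, while the other 6 libraries lay between -44 and -1.04. It also differed by gene length. In the fifth of genes with the shortest exons (238 to 1914 bases), its median deviation from the KO mean was 0.39 on the log2 scale, and in the fifth with the longest (5895 to 31152 bases) it was -0.5. KO 3 leaned the same way (0.38 and -0.23), and KO 4 (-0.4 and 0.27) and treated 4 (-0.29 and 0.29) the other way. The treated minus KO differences from limma were also fitted without each library and, for genes with a known exon length, with every library centred along that length. Beyond that, the part of these shifts was not tested. Markers of the labelled tissue were present: Epcam, a surface protein of epithelial cells, was between 1238 and 1926 FPKM in KO and between 740.5 and 1471 in treated libraries. Of the 10 epithelial markers 7 had a difference below 0 (5960 of the 11974 genes did), with a median of -0.22. None passed the test, which only 0.0835% of all genes passed, so this does not show that the epithelium was unchanged.

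**Figure D1:**
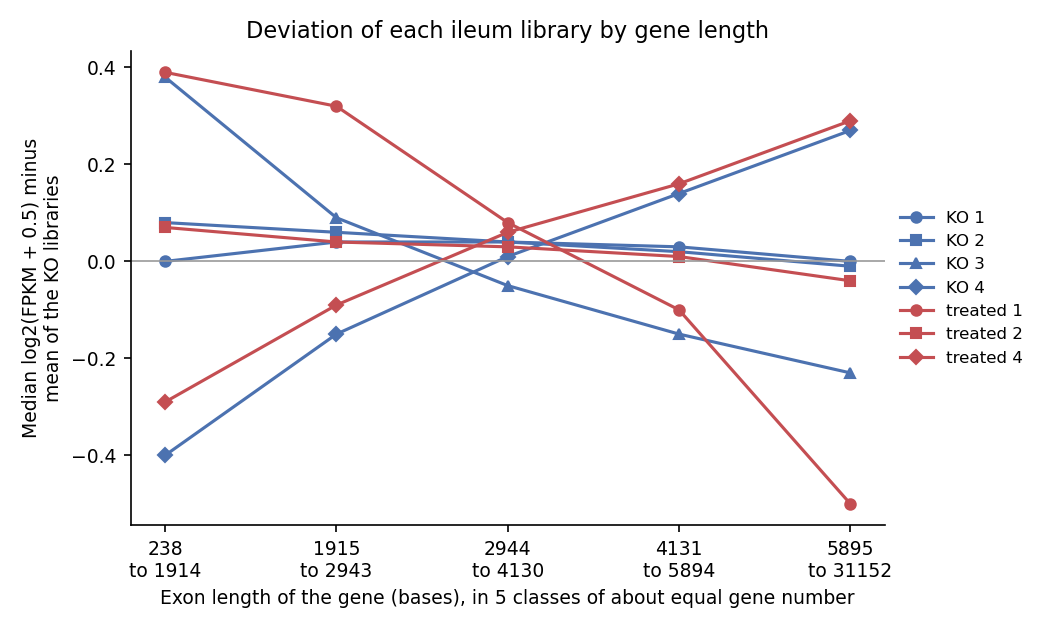
Each line is 1 ileum library, blue for KO and red for treated. The x axis gives 5 classes of exon length in bases, each with about the same number of genes, and the y axis the median difference in log2(FPKM + 0.5) from the mean of the KO libraries (for a KO library, of the other 3). Treated 1 goes from 0.39 in the shortest class to -0.5 in the longest, and treated 4 from -0.29 to 0.29.

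Across the 11974 genes, 7 were higher and 3 were lower in treated than in KO ileum with limma's moderated test on log2(FPKM + 0.5) and a Benjamini-Hochberg adjusted p under 0.05. These 10 genes are 0.0835% of the genes tested (0.0585% higher, 0.0251% lower), and 437 genes had an unadjusted p under 0.05. At a share of 0.0835% most short gene lists would hold no called gene, so lists without a call are given below as a description. Every treated library lay above every KO library for 363 genes (3.03%) and below for 236 (1.97%). The genes that rose were S100g, Cyp24a1, Arg1, Serpina3n, Timp1 and the noncoding transcripts AI506816 and 5033404E19Rik. Those that fell were Hsd3b3, Cyp2c55 and Acta1. Cyp24a1, Arg1, AI506816 and 5033404E19Rik averaged under 1 FPKM in KO and reached the level limit only through the treated libraries. Hsd3b3 reached it only through KO. A gene chosen this way had to differ, so these calls are given as a description. S100g, Hsd3b3 and AI506816 stayed past the threshold whichever of the 7 libraries was left out, and the other 7 did not. Without 1 KO library those 7 were lost, except that Timp1 was kept without KO 3. Acta1, Cyp2c55, Serpina3n and Timp1 were lost without treated 1, Acta1, Cyp2c55, Timp1, Arg1, Cyp24a1 and 5033404E19Rik without treated 2, and Timp1 without treated 4. With age in weeks as a covariate 0 genes were called by limma and 127 had an unadjusted p under 0.05, in a fit where KO 1 is the only KO library of the treated mice's age. The differences themselves stayed close in that fit, at 5.13 for S100g, 4.42 for Cyp24a1, 4.35 for AI506816 and -3.77 for Hsd3b3.

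**Figure D2:**
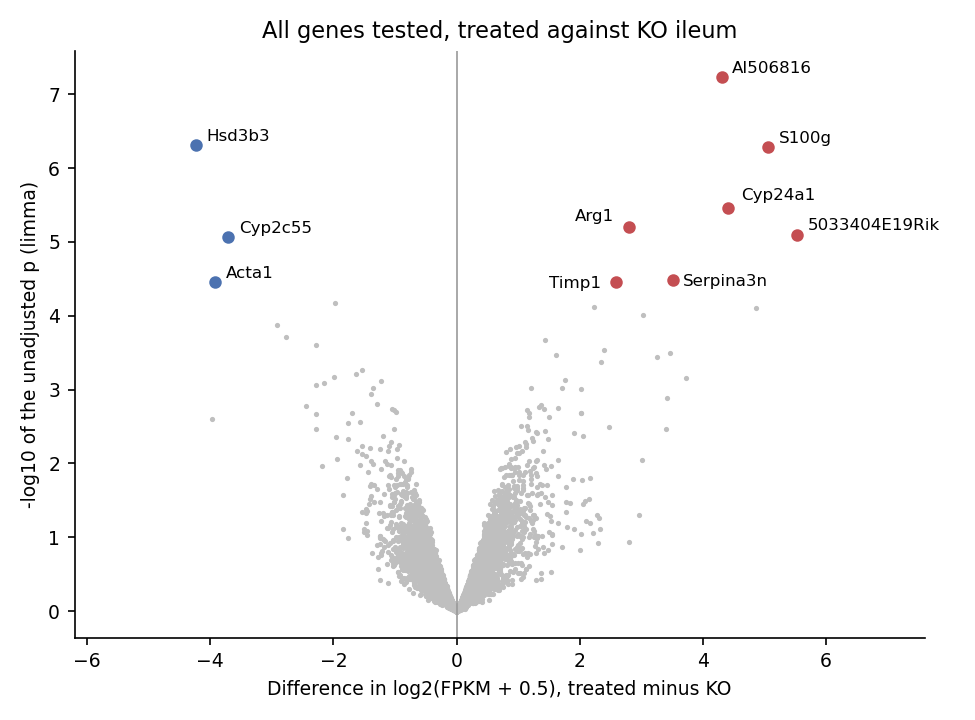
Each point is 1 of the 11974 genes. The x axis is the difference in log2(FPKM + 0.5), treated minus KO ileum, and the y axis -log10 of the unadjusted p from limma. The 10 named points are those past an adjusted p of 0.05, 7 to the right (red) and 3 to the left (blue).

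Vdr itself was 20.9, 21.4, 20.3 and 22.2 FPKM in KO 1 to 4 and 13.4, 18.5 and 22.6 FPKM in treated 1, 2 and 4. The groups overlap, the log2 difference was -0.25 (SE 0.24, limma adjusted p = 0.939), and the exact two-sided permutation p was 0.286. The files give 1 value per gene, so a deleted part of the KO transcript and the human transgene are not seen separately, and the value checks neither genotype. In the permutation test of 3 against 4 libraries no p under 0.0571 can be reached.

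Cyp24a1, the gene that inactivates 1,25D3, was listed at 0, 0, 0 and 0.012 FPKM in KO and at 4.31, 12.2 and 19.5 FPKM in treated libraries. In reads this is 1 in the 4 KO libraries together against 254, 702 and 1565. All treated libraries lay above all KO libraries, with treated 1 the lowest. The difference in log2(FPKM + 0.5) was 4.41 (SE 0.45, limma adjusted p = 0.0105), a size set in part by the pseudocount since KO is near 0: it was 6.63 with 0.1 FPKM and 3.49 with 1 FPKM. The exact permutation p was 0.0571, the smallest this design allows. Cyp24a1 lies on chromosome 2 from 170308208 to 170322645 (mm9, minus strand), where its start overlaps Pfdn4 on the other strand. Over all fits run, its adjusted p ranged from 0.0012 to 0.684 in limma.

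S100g, the cytosolic calcium carrier, was 23.5, 24.1, 31.7 and 20.7 FPKM in KO and 425.3, 897.6 and 1543 FPKM in treated libraries. The lowest treated value lay far above the highest KO value. The log2 difference was 5.06 (SE 0.41, adjusted p = 0.00206 in limma), which is 33.3-fold, and the exact permutation p was 0.0571. The gene is on the X chromosome from 159399924 to 159402531 (mm9, minus strand), inside the Ctps2 gene on the other strand. No label or header says whether counting used strand, so reads of overlapping partners may be mixed for both genes.

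Trpv6, the apical calcium channel, had a mean below 1 FPKM and was therefore not among the genes tested. It stood at 0.138, 0.104, 0.146 and 0.168 FPKM in KO (7 to 12 reads) and at 1.08, 0.571 and 3.35 FPKM in treated libraries (56, 29 and 237 reads). The groups do not overlap, and the exact permutation p was 0.0571. Its kidney counterpart Trpv5 was listed at 0 in all 7 libraries. Of the other genes in the qPCR panel of the study's protocol, Slc30a10, a manganese exporter, was 7.21 to 8.92 FPKM in KO and 4.65, 11.3 and 57.8 FPKM in treated libraries, with 1 high library and overlapping groups (permutation p = 0.457, exact). Slc37a2, a sugar-phosphate exchanger, was 0.672 to 4.81 FPKM in KO and 0.492 to 1.68 in treated libraries (exact permutation p = 0.571).

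The rest of the calcium and vitamin D genes did not pass the test. Of 10 calcium transport genes tested only S100g was called (0.0835% of all genes were), and the median log2 difference of the 10 was 0.16, beside 0.00 over all genes. The basolateral pump Atp2b1 was 44.6 to 61.8 FPKM in KO and 9.79, 40.7 and 63.4 in treated libraries. Treated 1 was far below KO, treated 2 just below and treated 4 just above. Its exons add up to 7145 bases, in the length class where treated 1 was low. The log2 difference was -0.82, or -0.76 with centring along exon length and -0.046 without treated 1. Of 11 receptors, partners and hydroxylases only Cyp24a1 was called (0.0835% of all genes were). Cubn, an endocytic receptor with a long transcript (11815 bases of exon), was 34.4 to 38.9 FPKM in KO and 2.61, 15.8 and 23.8 in treated libraries, below KO throughout and lowest in treated 1 (adjusted p = 0.939, limma). Among 9 magnesium genes Trpm6, the apical magnesium channel, was 4.66 to 6.44 FPKM in KO and 0.568, 1.94 and 2.85 FPKM in treated libraries, without overlap (log2 difference -1.57, adjusted p = 0.587 in limma). Its exons add up to 6508 bases, which puts it in the length class where treated 1 was low. The difference was -1.52 with centring along exon length and -1.095 without treated 1.

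Metallothioneins bind zinc and copper. Mt1 was 131.8 to 253.4 FPKM in KO and 610.5, 537.1 and 643.4 FPKM in treated libraries. Mt2 was 30.0 to 70.4 FPKM in KO and 156.5, 215.1 and 459.3 FPKM in treated libraries. Both were above KO in every treated library but missed the threshold (log2 differences 1.62 and 2.40, limma adjusted p = 0.195 and 0.183). None of the 18 genes of zinc and manganese handling was called, and their median difference was -0.00.

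**Figure D3:**
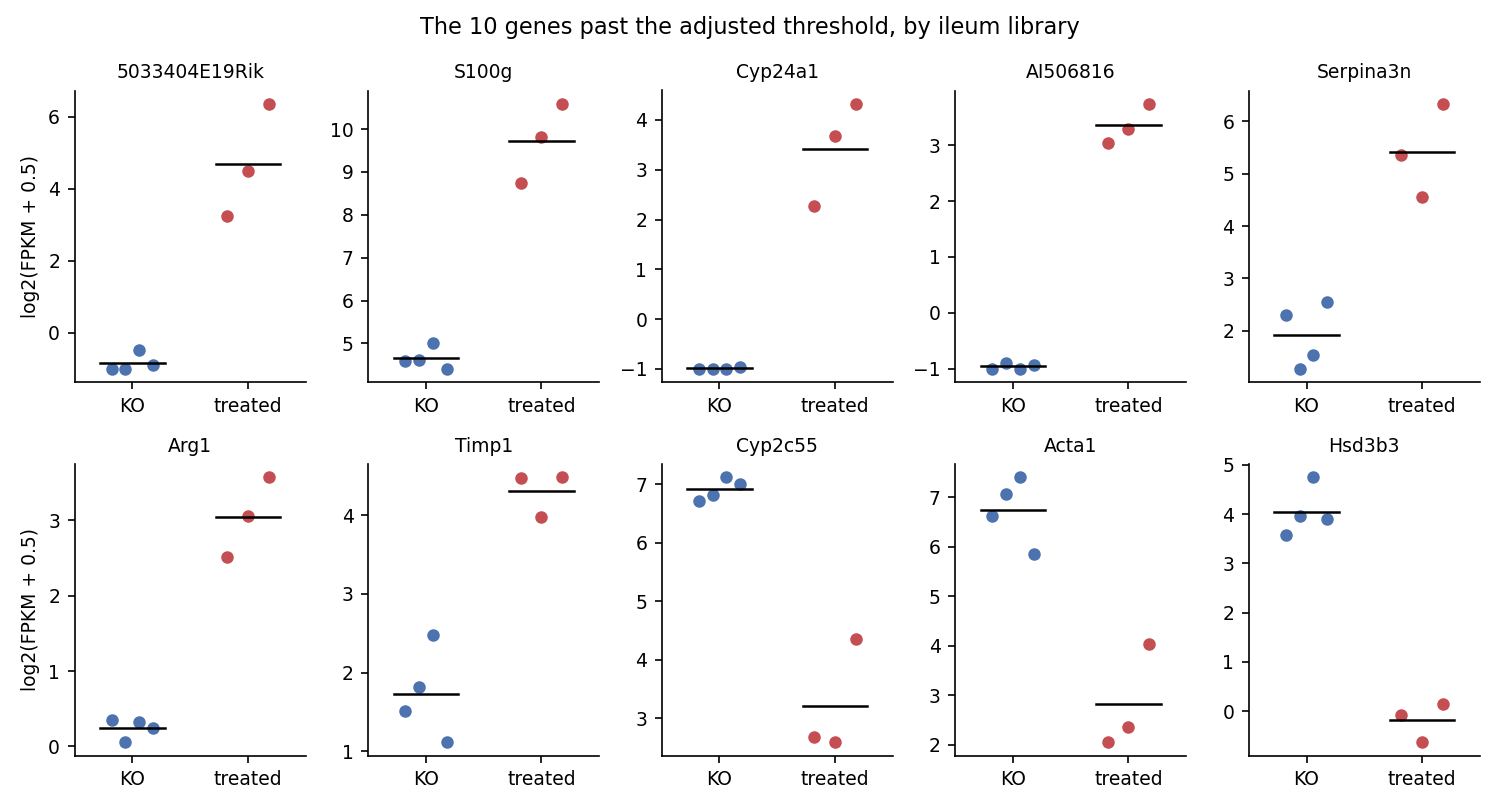
Each panel is 1 of the 10 genes past the threshold. Points are libraries (4 KO in blue, 3 treated in red), black bars the group means, and the y axis is log2(FPKM + 0.5) on a scale of its own per panel. In all 10 panels the groups do not overlap, but these genes were chosen by the test on the same libraries. Of all genes 3.03% had every treated above every KO library and 1.97% every treated below. The treated points of S100g, Cyp24a1 and 5033404E19Rik are spread widely, those of Timp1 and AI506816 narrowly.

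The 250 bases before the start of AI506816, S100g, Hsd3b3 and Cyp2c55 are shown because, of the called genes with a RefSeq entry (GRCm38.p6), these 4 had the smallest adjusted p. Of the 10 called genes, 7 had an entry, and Hsd3b3 had 2 start sites. The sequences were searched on both strands for AGGTCA, any 3 bases, AGGTCA, the direct repeat that the VDR and RXR pair is known to bind, and the capitals mark the closest match in each. S100g (chrX:162964600-162964849, minus strand) and AI506816 (chr5:23712668-23712917, minus strand) hold at best a match with 4 of the 12 fixed letters wrong, which 71.7% of 32841 promoters of this length also hold. The same is true of both Hsd3b3 entries (chr3:98763129-98763378 and chr3:98762411-98762660, minus strand) and of Timp1. Serpina3n and Acta1 hold at best a match with 5 wrong, as 99.6% of promoters do. Cyp2c55 (chr19:39006769-39007018, plus strand) holds a match with 2 letters wrong that begins 74 bases before the start, as 2.6% of promoters do. It is the closest match among the 8 entries searched. A match is a description of these letters and shows no binding.
S100g: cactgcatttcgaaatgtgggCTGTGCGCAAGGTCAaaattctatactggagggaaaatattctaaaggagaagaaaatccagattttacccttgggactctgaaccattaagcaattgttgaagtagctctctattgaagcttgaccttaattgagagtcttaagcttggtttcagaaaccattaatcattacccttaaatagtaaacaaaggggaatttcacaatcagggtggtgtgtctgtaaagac
AI506816: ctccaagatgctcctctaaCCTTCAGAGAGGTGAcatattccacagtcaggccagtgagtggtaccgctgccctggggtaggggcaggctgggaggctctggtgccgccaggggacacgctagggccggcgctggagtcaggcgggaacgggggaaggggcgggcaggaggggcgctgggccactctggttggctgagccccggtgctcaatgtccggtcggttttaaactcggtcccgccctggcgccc
Hsd3b3, first entry: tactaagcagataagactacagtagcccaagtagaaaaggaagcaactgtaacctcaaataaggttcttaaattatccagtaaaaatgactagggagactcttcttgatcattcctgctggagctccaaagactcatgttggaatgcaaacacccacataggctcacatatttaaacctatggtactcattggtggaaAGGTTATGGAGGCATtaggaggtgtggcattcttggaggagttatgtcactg
Hsd3b3, second entry: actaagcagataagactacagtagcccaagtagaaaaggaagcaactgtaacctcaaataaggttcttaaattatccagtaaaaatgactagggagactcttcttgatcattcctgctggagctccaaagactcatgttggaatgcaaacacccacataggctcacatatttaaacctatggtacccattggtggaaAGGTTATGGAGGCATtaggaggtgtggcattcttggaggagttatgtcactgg
Cyp2c55: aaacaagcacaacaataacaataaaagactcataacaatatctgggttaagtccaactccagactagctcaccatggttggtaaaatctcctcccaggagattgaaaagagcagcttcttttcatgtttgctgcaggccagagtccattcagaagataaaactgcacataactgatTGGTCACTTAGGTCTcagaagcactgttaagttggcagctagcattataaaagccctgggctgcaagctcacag

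Both noncoding genes were near absent in KO ileum and reached the level limit only through the treated libraries. AI506816, a long noncoding RNA in RefSeq, was listed at 0, 0.037, 0 and 0.026 FPKM in KO and at 7.73, 9.22 and 12.8 FPKM in treated libraries, or 0, 4, 0 and 3 reads against 654, 760 and 1476. The difference on the log2(FPKM + 0.5) scale was 4.31 (SE 0.27, limma adjusted p = 0.00071), the smallest p of all genes. 5033404E19Rik, a transcribed pseudogene, was listed at 0, 0, 0.225 and 0.038 FPKM in KO and at 8.9, 22.1 and 81.6 FPKM in treated libraries (log2 difference 5.54, SE 0.62, limma adjusted p = 0.0148). Every treated library was above every KO library for both. The treated values spread widely for 5033404E19Rik and narrowly for AI506816. Being near 0 in KO, both differences depend on the pseudocount, 3.4 to 6.42 for AI506816 and 4.65 to 7.45 for 5033404E19Rik over all fits.

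A further 3 genes that rose are known from wound healing and inflammation. Arg1, the arginase of the urea cycle and of alternatively activated macrophages, was 0.538 to 0.773 FPKM in KO and 5.2, 7.81 and 11.4 FPKM in treated libraries (log2 difference 2.80, SE 0.30, limma adjusted p = 0.0148). Serpina3n, a secreted protease inhibitor, was 4.41, 1.91, 2.38 and 5.31 FPKM in KO and 40.5, 22.9 and 80.5 FPKM in treated libraries (log2 difference 3.51, SE 0.47, limma adjusted p = 0.0422). Timp1, an inhibitor of matrix metalloproteinases, was 2.36, 3.02, 5.07 and 1.66 FPKM in KO and 21.7, 15.3 and 21.9 FPKM in treated libraries (log2 difference 2.58, SE 0.34, limma adjusted p = 0.0422). None of the 3 overlaps between groups, but they were chosen by the test on the same libraries, and 3.03% of all genes lay above KO in this way. Serpina3n belongs to a cluster of similar genes whose reads may be split, and Timp1 lies inside Syn1 on the other strand. With quantile normalization Serpina3n and Timp1 were not called (adjusted p = 0.0579 and 0.0754 in limma).

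Of 11 acute-phase genes tested, which interleukin signals through Stat3 switch on, none was called. All 11 had a difference above 0 (6014 of the 11974 genes did), and their median was 1.65 on the log2 scale. In 7 of them every treated library lay above every KO library, beside 3.03% of all genes. All gene lists here were drawn up with earlier results of these data known, so their directions are no independent evidence. Hp, haptoglobin, was 11.2, 1.16, 15.2 and 10.3 FPKM in KO and 196.0, 65.4 and 77.9 FPKM in treated libraries (log2 difference 3.73, limma adjusted p = 0.304; 0.0194 with the library numbers as a replicate block). KO 2 was low for Hp, and without it the difference was 3.00 and was not called. Lcn2, which withholds iron from bacteria, was 2.11 to 2.54 FPKM in KO and 27.5, 8.36 and 74.5 FPKM in treated libraries. Saa3, a serum amyloid, was 6.75 to 12.6 FPKM in KO and 180.2, 28.4 and 195.3 FPKM in treated libraries. For Lcn2 and Saa3 treated 2 was the low treated library, and without it both were called (adjusted p = 0.0147 and 0.00691 in limma, against 0.195 and 0.19 with it). Lrg1, a leucine-rich glycoprotein of the same response, was 3.31 to 8.82 FPKM in KO and 237.7, 17.0 and 49.9 FPKM in treated libraries, again without a call.

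Markers of immune cells were read beside these genes. S100a8, a neutrophil alarmin that inflamed epithelium also makes, was 0.893 to 1.27 FPKM in KO and 14.2, 4.77 and 23.3 FPKM in treated libraries (log2 difference 3.03, limma adjusted p = 0.0828, and 0.0129 without treated 2). Of the 9 neutrophil markers 2 were high enough to test, and Mpo was listed at 0 in all 7 libraries. The summed level of the 9 was 4.92 to 8.57 FPKM in KO and 21.5, 8.83 and 34.4 FPKM in treated 1, 2 and 4. Of these treated sums S100a8 alone held 14.2, 4.77 and 23.3 FPKM, so the sum does not show a rise across the 9 markers. Cxcr2, the other one tested, was 2.92 to 7.17 FPKM in KO and 3.49 to 4.57 FPKM in treated libraries. Of 16 chemokines 4 had every treated above every KO library (3.03% of all genes did) and none was called (median log2 difference 0.70). The monocyte chemokine Ccl2 was 1.21 to 2.03 FPKM in KO and 3.39, 5.88 and 19.2 FPKM in treated libraries, and Ccl7 0.401 to 0.967 against 1.85, 4.17 and 10.3 FPKM. As Ccl7 reached the level limit only through the treated libraries, it had to differ, and its place in the chemokine count is a description. Of 11 markers of macrophages and dendritic cells 10 had a difference above 0 (6014 of the 11974 genes did), and none was called. These 11 markers summed to 289.0 to 405.0 FPKM in KO and 316.0 to 673.0 FPKM in treated libraries, so the groups overlap. The 16 lymphocyte markers had a median of -0.19 and no call. More cells of a type and more RNA per cell cannot be told apart in such bulk samples, and the part of these cells in the rise of Arg1, Serpina3n and Timp1 was not tested.

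Hsd3b3, a steroid dehydrogenase, was 11.5, 15.1, 26.4 and 14.5 FPKM in KO and 0.45, 0.144 and 0.608 FPKM in treated libraries (log2 difference -4.24, SE 0.34, limma adjusted p = 0.00206). No treated value comes near the KO range. With treated libraries under 1 FPKM, the size depends on the pseudocount, from -5.15 with 0.1 FPKM to -3.62 with 1 FPKM. The gene lies on chromosome 3 from 98545399 to 98567051 (mm9) between the similar genes Hsd3b2 and Hsd3b6, among which reads may be split. In the same list of Hsd3b, Sprr and Ang genes 6 of 7 had a difference below 0 (5960 of the 11974 genes did), with a median of -1.24. For 4 of them every treated library lay below every KO library (1.97% of all genes), and only Hsd3b3 was called. Sprr2a1, a small proline-rich protein of the epithelial surface, was 521.8 to 987.4 FPKM in KO and 266.8, 94.0 and 131.8 FPKM in treated libraries (log2 difference -2.29, adjusted p = 0.167 in limma; 0.0452 with quantile normalization). Sprr2b was 3.04 to 7.02 FPKM in KO and 1.48, 0.325 and 0.776 FPKM in treated libraries, without overlap and without a call. Hsd3b3 and Sprr2b reached the level limit only through KO, so both had to differ, and their place in the count above is a description. This list was drawn up with earlier results of the series known, so its direction is no independent evidence.

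Cytochromes P450 of the Cyp2c and Cyp3a families oxidise drugs, steroids and bile acids. Cyp2c55 was 103.9, 111.6, 138.4 and 128.0 FPKM in KO and 5.9, 5.5 and 19.9 FPKM in treated libraries, with a log2 difference of -3.71 (SE 0.42, limma adjusted p = 0.0148), 13.0-fold. It is on chromosome 19 from 39081509 to 39117183 (mm9, plus strand). Of the 7 genes of both families tested, 5 had every treated below every KO library (1.97% of all genes did), 1 was called, and the median was -1.96. This list too was drawn up with earlier results of these data known, so its direction is no independent evidence. Cyp3a11, the main Cyp3a enzyme of mouse liver and gut, was 70.6, 94.1, 94.9 and 33.4 FPKM in KO and 5.21, 16.3 and 9.84 FPKM in treated libraries (log2 difference -2.77, SE 0.46, limma adjusted p = 0.143). Cyp3a25 was 48.6 to 73.0 FPKM in KO and 5.15, 23.5 and 29.6 FPKM in treated libraries. Cyp3a44 was 2.9 to 9.49 FPKM in KO and 0.06, 0.276 and 1.08 FPKM in treated libraries. As Cyp3a44 reached the level limit only through KO, it had to differ, and its place in the count above is a description. All 3 lie below KO in every treated library and none was called; they are similar enough in sequence for reads to be shared.

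Of 26 other genes of drug handling tested none was called. Among them 19 had a difference below 0 (5960 of the 11974 genes did), 3 with every treated below every KO library (1.97% of all genes), and the median was -0.42. Ces2a, a carboxylesterase, came nearest to the threshold. It was 310.9, 292.3, 267.8 and 212.0 FPKM in KO and 97.2, 60.5 and 52.7 FPKM in treated libraries (log2 difference -1.98, SE 0.29, limma adjusted p = 0.0716), and it was called without treated 1, with quantile normalization, with median-ratio scaling and in the fit centred along exon length (adjusted p of 0.00944 to 0.0481 in limma). Abcb1a, the drug efflux pump, was 99.2 to 135.2 FPKM in KO and 6.29, 35.1 and 46.5 FPKM in treated libraries, without overlap and lowest in treated 1 (adjusted p = 0.658, limma). The third gene that fell, Acta1, is the actin of skeletal muscle. It was 97.9, 134.0, 169.3 and 57.3 FPKM in KO and 3.62, 4.64 and 16.0 FPKM in treated libraries (log2 difference -3.92, SE 0.53, limma adjusted p = 0.0422; 0.088 with the replicate block). None of the 10 smooth muscle markers was called (median -0.03, summed level 1070 to 1840 FPKM in KO and 848 to 2850 FPKM in treated libraries).

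**Figure D4:**
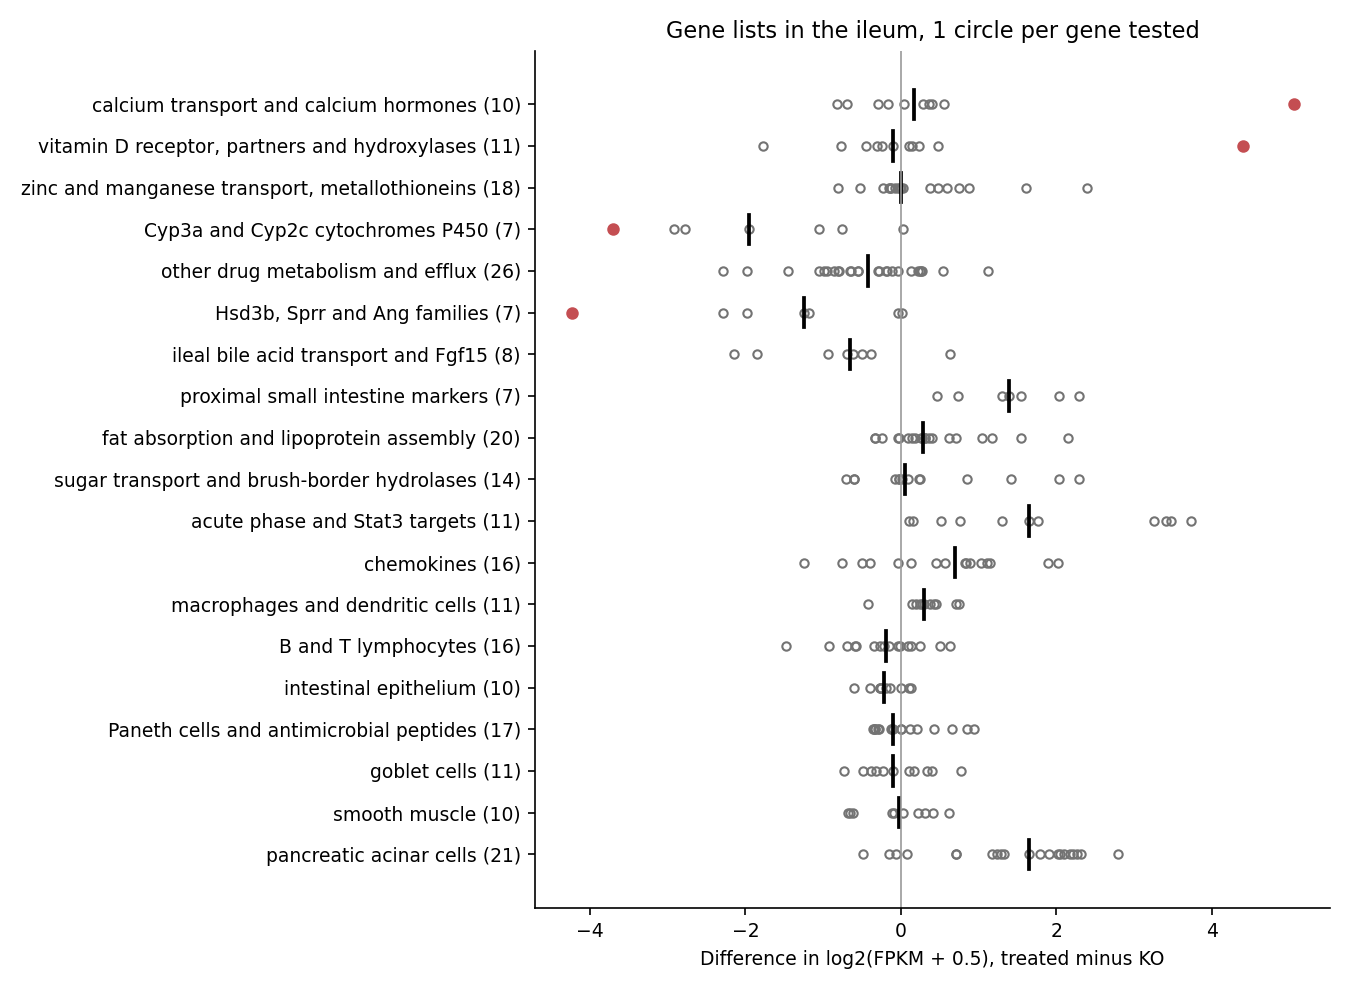
Each row is 1 gene list, with the number of its genes tested in brackets. Circles are genes at their difference in log2(FPKM + 0.5), treated minus KO ileum, red where past the threshold, and black bars are list medians. The vertical line is the median of all genes. The Cyp3a and Cyp2c list has a median of -1.96, the acute-phase list 1.65, the proximal small intestine markers 1.39 and the acinar markers 1.65.

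Of 8 genes of ileal bile acid recovery none was called. The difference was below 0 for 7 of them (and for 5960 of the 11974 genes), with a median of -0.65. Fabp6, the ileal bile acid carrier, was 28380, 30150, 37440 and 14420 FPKM in KO and 3924, 6492 and 7939 FPKM in treated libraries, below KO throughout (log2 difference -2.15, SE 0.44, limma adjusted p = 0.32). The basolateral exporter subunit Osta was 634.0 to 1087 FPKM in KO and 583.8, 530.3 and 480.0 FPKM in treated libraries. Its partner Ostb was 914.4 to 1710 FPKM in KO and 621.6, 798.2 and 1343 FPKM in treated libraries, and the groups overlap. Fgf15, the hormone that the ileum sends to the liver, was 6.53 to 29.3 FPKM in KO and 29.1 FPKM in treated 4, while treated 1 and 2 had 1.97 FPKM or less.

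Markers of more proximal small intestine were read beside these genes. All 7 tested had a difference above 0 (6014 of the 11974 genes did), with a median of 1.39, and none was called. The 8 markers found summed to 65.5 to 215.0 FPKM in KO and to 993.4, 639.9 and 143.0 FPKM in treated 1, 2 and 4. Lactase, Lct, was 0.657 to 7.96 FPKM in KO and 103.9, 36.4 and 0.663 FPKM in treated libraries, and Gata4, the factor of proximal identity, 1.34 to 5.08 against 21.8, 7.17 and 1.55 FPKM. Treated 4 was within the KO range for both, and treated 1 and 2 were above it. The fructose transporter Slc2a5 was 9.54 to 19.1 FPKM in KO and 46.0, 40.8 and 25.2 FPKM in treated libraries, the glucose transporter Slc5a1 254.9 to 418.1 against 509.8, 621.5 and 530.2 FPKM, both without overlap and without a call. Apoa4, an apolipoprotein of fat absorption, was 83.1 to 281.6 FPKM in KO and 2594, 712.5 and 143.7 FPKM in treated libraries. The part of the position along the gut at which tissue was taken was not tested.

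Of 13 genes of amino acid and unfolded protein stress none was called. The difference was above 0 for 11 of them (and for 6014 of the 11974 genes), with a median of 0.35. Asns, asparagine synthetase, was 19.6 to 24.6 FPKM in KO and 73.8, 46.4 and 60.7 FPKM in treated libraries, without overlap (log2 difference 1.44, SE 0.24, limma adjusted p = 0.152). Chac1, a glutathione-degrading enzyme of the same response, was 0.932 to 1.89 FPKM in KO and 8.16, 6.69 and 2.89 FPKM in treated libraries.

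No gene of the lists for Paneth cells (17 tested, median -0.10), goblet cells (11, -0.10), enteroendocrine cells (13, -0.28), tuft cells (6, 0.02), stem cells (11, -0.12) or the cell cycle (19, 0.07) was called. Of all genes 0.0835% were called, so this does not show that these cells were unchanged. Pancreatic acinar markers, genes of digestive proenzymes, had a difference above 0 for 18 of 21 (median 1.65), beside 6014 of the 11974 genes, with none called. Leaving out Zg16, which goblet cells also make, the other 22 markers found summed to 325.0 to 639.0 FPKM in KO and to 659.0, 587.0 and 1080 FPKM in treated libraries. Prss2, a trypsinogen, was 0.065 to 3.85 FPKM in KO and 2.53, 3.54 and 60.3 FPKM in treated libraries, high in treated 4 alone.

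Values of the uninjected CDX2-VDR ileum were set beside these. Against the same KO libraries 1 of 11827 genes passed the threshold (0.00846%), Cyp2c55, which was 20.1, 11.5 and 9.34 FPKM in the uninjected libraries (log2 difference -3.09, SE 0.30, adjusted p = 0.0328 in limma). Both comparisons share the KO libraries, and uninjected values come from a table whose scale is lower by a factor of 1.047. The KO mice were all male and 2 of the uninjected mice were female, so sex and genotype cannot be told apart in full here. The call was lost without any 1 KO library, without uninjected 3 and with no level filter (adjusted p = 0.051 in limma). S100g was 5345, 3733 and 453.1 FPKM in uninjected libraries (log2 difference from KO 6.44, SE 0.74, limma adjusted p = 0.0577), 2 of them above every treated library. 5033404E19Rik was 103.4, 11.4 and 12.6 FPKM there. Trpv6 was 1.59, 2.15 and 0.105 FPKM there. Cyp24a1, at 0.174, 0.482 and 0.008 FPKM, Arg1, at 0.389, 0.363 and 0.616 FPKM, and Serpina3n, at 2.7, 1.44 and 3.96 FPKM, were below every treated library. Hp, at 1.82, 9.25 and 4.15 FPKM, was too. AI506816 was listed at 0, 3.11 and 9.88 FPKM and Hsd3b3 at 10.8, 0.661 and 0.149 FPKM, so both spread from at or near the KO range into the treated range. Fabp6 was 37260, 14120 and 15130 FPKM, above every treated library.

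Tested against the uninjected libraries, none of 11815 genes passed in the treated libraries (0%), with 97 at an unadjusted p under 0.05 and a smallest limma adjusted p of 0.471. The log2 differences of the genes above, treated minus uninjected, were 3.85 for Cyp24a1 (SE 0.58), 3.03 for Arg1 (SE 0.42), 3.74 for Serpina3n (SE 0.55) and 4.34 for Hp (SE 0.62), each with an adjusted p of 0.471. For S100g it was -1.38 (SE 0.94) and for Cyp2c55 -0.61 (SE 0.56), both with an adjusted p of 1. The uninjected group holds 2 females and the treated group none, so sex and injection cannot be told apart in full.

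**Figure D5:**
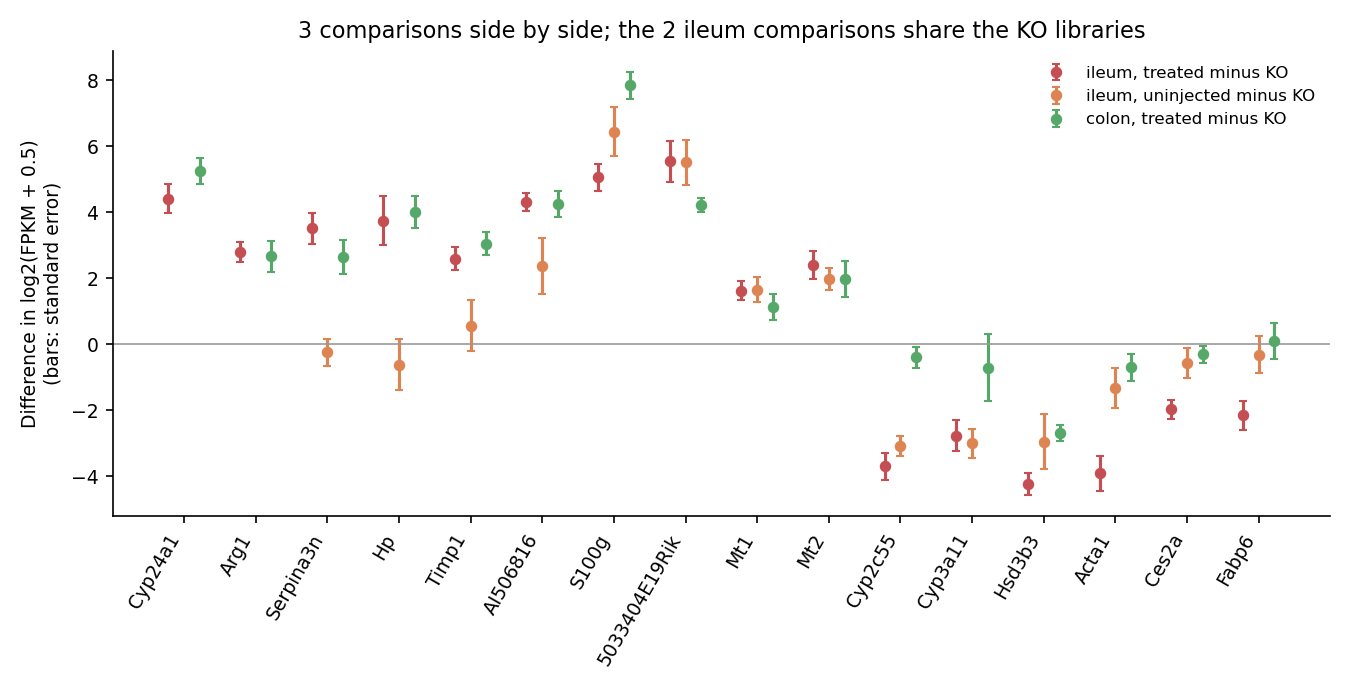
Differences in log2(FPKM + 0.5) with standard errors for 16 genes: treated minus KO ileum (red), uninjected minus KO ileum (orange) and treated minus KO colon (green). The 2 ileum comparisons share their KO libraries, and Cyp24a1 and Arg1 were too low to be fitted in uninjected against KO ileum. Serpina3n is at 3.51 in the red and -0.25 in the orange comparison, S100g at 5.06 and 6.44.

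Whether the ileum and colon effects differ was tested with the difference of both effects, each taken within its own table. The fit took ileum and colon libraries as independent, and no label says whether the same mice gave both tissues. The difference passed for 1 of 12448 genes (0.00803%), Trpv6, and 462 had an unadjusted p under 0.05. Trpv6 was 0.0971 to 0.741 FPKM in KO colon and 231.4, 387.9 and 263.0 FPKM in treated colon, and its treated minus KO difference was lower in ileum than in colon (ileum minus colon -6.81 on the log2 scale, SE 0.54, limma adjusted p = 7.58e-05). It was called in all 21 alternatives run, at -7.33 to -6.41. Trpv6 was under the level limit in the ileum comparison and entered here through the treated colon, the group where it is high, so a gene chosen this way had to differ and the call is given as a description. S100g was 48.7 to 106.6 FPKM in KO colon and 12980, 26660 and 9381 FPKM in treated colon, an effect of 7.84 beside 5.06 in ileum (difference -2.79, SE 0.61, adjusted p = 0.341 in limma). Cyp2c55 was 1079 to 1838 FPKM in KO colon and 712.5 to 1403 FPKM in treated colon, an effect of -0.41 beside -3.71 (difference -3.30, SE 0.55, limma adjusted p = 0.168). Effects of Cyp24a1 (5.24 in colon), Arg1 (2.66), Serpina3n (2.63), Timp1 (3.05), AI506816 (4.25) and 5033404E19Rik (4.21) had the direction seen in ileum, and limma gave adjusted p values of 0.977 or more for their differences.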

How the data were processed

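The deposited tables hold FPKM per gene. Per the labels' protocols, the authors made poly(A) libraries with a NEBNext Ultra II kit and mapped reads with CLC Genomics Workbench, and per the submitters' processing notes the build was mm9 and kallisto 0.45.0, DESeq 1.14.0 and DESeq2 were used, with no role given. How counting treated strand and multi-mapping reads is not given in the sources used here. In the treated and KO table the median-ratio factor over all genes above 0 in every library was the same (1.0207) in all 7 libraries, and over the genes tested, as used in the median-ratio alternative, it ran from 0.9892 to 1.05. Each table has its own scale, so tests stayed within a table and the tissue difference took each effect from its own table.

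FPKM were analysed as log2(FPKM + 0.5), which understates changes of low genes, for genes averaging 1 FPKM or more, with limma 3.58.1 (R 4.3.3; lmFit, eBayes with an intensity trend), two-sided, Benjamini-Hochberg adjusted over all genes tested, threshold 0.05. Single values of the qPCR panel and Vdr were compared with an exact permutation test (scipy 1.17.1). The models were tested on simulated libraries in which each gene was drawn independently. These held no shift along exon length and no outlying library, so they say nothing of such effects. Reads were recovered from the steps of low FPKM values. Of 18022 genes 5876 (32.6%) came out whole to within 0.01 reads, 11957 were set by exon length and 189 were left out. These reads serve for depth and are printed beside some low genes, and they entered no test. Gene positions and exon lengths come from GENCODE vM1 (mm9), promoters from RefSeq (GRCm38.p6), and 609 of 621 list entries were found, 8 by another symbol. In the files 25 gene names are written as dates.

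Genes were named by rule: the qPCR panel and Vdr, up to 20 called genes per direction with the largest difference, no overlap and at least 2 FPKM in the higher group, up to 4 genes of each list with the smallest p, and up to 5 per direction for the tissue difference. Members and lists were chosen with earlier results of these data known. Library numbers 1, 2 and 4 occur in both groups. Deviations from the group means correlated by 0.227, 0.113 and 0.505 within these numbers, all over 0.1, so a replicate block was fitted as an alternative. Treated 2 correlated best with another KO library, and no label states what a number shares. KO 4 and treated 4, at 0.505, shift alike along exon length (-0.4 to 0.27 and -0.29 to 0.29). Whether the numbers mark pairs is therefore not known. Alternatives were other pseudocounts, filters, scalings and prior, each library left out, the block, age, all 3 ileum groups in 1 fit and, chosen after seeing the data, centring along exon length.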

Additional observations from a re-analysis of the deposited data

Results flagged for a closer look

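The treated minus KO difference of Trpv6 was lower in ileum than in colon by the test of the difference itself (ileum minus colon -6.81 on the log2 scale, SE 0.54, limma adjusted p = 7.58e-05). It passed the level filter only through the treated colon, where it is high, while its ileum values rest on few reads. Among the 4 KO libraries of each named gene, 3 of 48 genes had 1 library far from the others, and chance marks about 1 group in 20. Cyp24a1 was at 0.0124 FPKM in KO 4, which is 1 read, and at 0 in the other 3. 5033404E19Rik was at 0.225 FPKM in KO 3. Abcb1a was at 135.2 FPKM in KO 4, beside 99.2 to 103.8 FPKM in the others.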

How the results depend on the processing

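Of the 10 genes called in treated against KO ileum, none changed direction under any alternative run, and the count of calls moved as follows. It was 4 (6 lost) with 3 ileum groups in 1 fit (S100g at an adjusted p of 0.0585, AI506816 at 0.149 and Hsd3b3 at 0.174 were among those lost); 0 with age as a covariate; and 5 with centring along exon length (chosen after seeing the data), a fit without AI506816 and 5033404E19Rik, which have no length there, in which Acta1, Arg1, Cyp2c55 and Serpina3n were not called and Ces2a was. With the replicate block it was 11 (9 shared): Acta1 was lost, Hp and Abhd1 were gained, and no other call changed by it. Quantile normalization kept the count at 10 but split it 5 higher and 5 lower, against 7 and 3. Leaving out each library in turn gave 3 to 14 calls, 3 without KO 1, KO 2 or KO 4, 4 without KO 3 and 14 without treated 4. A mean filter of 5 FPKM gave 7 calls (AI506816 and Arg1 were below it, and Cyp24a1 was lost at an adjusted p of 0.0542), a pseudocount of 0.1 FPKM 7 (without Acta1, Serpina3n and Timp1) and no filter 12, of which 6 are shared (5033404E19Rik, Acta1, Serpina3n and Timp1 were lost).

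For uninjected minus KO ileum the count was 1, and it was 2 with a filter of 5 FPKM, with a pseudocount of 0.1 FPKM and with centring along exon length; with no level filter it was also 1, but not Cyp2c55; without 1 library it ranged from 0 (without any 1 KO library or uninjected 3) to 5 (without uninjected 4). Treated minus uninjected ileum gave 0 throughout. The tissue difference gave 1, 7 without a level filter, and 1 to 5 without 1 library (5 without treated 4 of the ileum). Where a count rests on 1 library the cause was not tested. A different sign from the main fit was seen for Slc30a10 (-0.092 without treated 4, -0.092 to 1.66 without 1 library), Slc37a2 (0.37 with age) and Cxcr2 (0.17 without KO 3 and with the replicate block, -0.22 to 0.17 without 1 library, 0.027 with age), none of them called. Genes under about 1 FPKM rest on few reads in each KO library, which limits what can be said of Trpv6.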
